A study of Mus musculus with 18 samples.

Results

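RNA levels of 10 genes of heterotrimeric G-protein signalling were examined in sorted bone marrow hematopoietic stem cells (HSCs) of young and aged mice. The genes were 8 of the RGS family and its partners (Rgs1, Rgs2, Rgs3, Rgs10, Rgs14, Rgs18, Rgs19 and Rgs7bp) and 2 genes of G-protein gamma subunits (Gng2 and Gng11), taken by symbol from a table of 24421 genes. All 10 symbols were in the table, and 9 passed an expression filter of a mean of at least 1 CPM over all libraries. CPM is the count scaled to a TMM-normalised library size common to all libraries. Rgs10 did not pass. The genes were chosen by their measured levels or differences in these same libraries, with earlier results known, and which values chose each gene is not stated. The levels and fold changes of these 10 genes are therefore given as a description, without p-values.

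The mice carried Hoxb5-tri-mCherry on a C57BL/6J background in all groups, so that mCherry reports Hoxb5. The fractions were bulk-HSCs, the immunophenotypically gated HSCs as a whole, LT-HSCs, the Hoxb5+ cells within that gate, and ST-HSCs, the Hoxb5- cells within it. Bulk-HSCs thus contain cells of both other fractions. The age was 2 to 3 months in young and 23 to 25 months in aged mice. Each fraction at each age had 3 libraries, 18 in all, and the labels do not say whether these came from separate animals, so that p-values measure only the spread between these samples. In such sorted bulk RNA, fewer cells of a type and less RNA per cell cannot be told apart.

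A ligand-bound receptor makes the alpha subunit of its G protein exchange GDP for GTP, and the alpha subunit and the paired beta and gamma subunits then act on separate effectors. RGS proteins bind the active alpha subunit and speed up its hydrolysis of GTP, which ends the signal. In HSCs this pathway lies downstream of chemokine and lipid receptors such as Cxcr4, which helps to retain the cells in the marrow niche.

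Counts quantified by StringTie from assembled transcripts summed to 16495048 to 22973844 per library. In these, 3 counts, taken as the smallest amount the depth can show, came to 0.132 to 0.176 CPM. The reads carried no molecular identifiers, so that this floor covers counting error only. Some well-covered genes, those with a median of 200 counts or more, were missing from single libraries, 1 to 163 of them in the young libraries and 2 to 6 in the aged ones. The highest numbers were in young LT-HSC replicate 3 (163 genes) and young ST-HSC replicate 3 (160 genes). Hoxb5, which defines the sort, had 8.20 to 40.3 CPM in young and 18.4 to 26.0 CPM in aged LT-HSCs, above the 0 to 3.83 and 0.397 to 4.56 CPM in ST-HSCs. All 10 HSC markers were detected, with a summed level of 3349 to 4554 CPM in every library. Of 7 progenitor markers, Il7r and Mpo, markers of lymphoid and myeloid progenitors, had no count in any library. Cd34, Cd27 and Flt3 were detected in every library, with group means of 62.1 to 241, 70.2 to 137 and 9.92 to 64.0 CPM. Cd48 and Fcgr3 were detected in some libraries.

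Promoter windows of the 250 bases upstream of the annotated start are shown for Rgs7bp, Gng2 and Rgs2, which had a window, passed the expression filter and had young and aged libraries without overlap in bulk-HSCs. The sequences are those of RefSeq on GRCm38.p6 (the build of mm10), which held a window for 6 of the 10 genes. The windows lie at chr13:105054931-105055180 for Rgs7bp, chr14:19976694-19976943 for Gng2 and chr1:144004150-144004399 for Rgs2, all on the minus strand. They are written 5′ to 3′, with matches to 7 short motifs in capitals.
Rgs7bp: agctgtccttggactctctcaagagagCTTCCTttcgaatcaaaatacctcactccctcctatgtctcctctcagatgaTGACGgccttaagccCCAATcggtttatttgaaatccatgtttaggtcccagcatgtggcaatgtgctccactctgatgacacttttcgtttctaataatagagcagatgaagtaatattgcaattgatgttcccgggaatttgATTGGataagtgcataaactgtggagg
Gng2: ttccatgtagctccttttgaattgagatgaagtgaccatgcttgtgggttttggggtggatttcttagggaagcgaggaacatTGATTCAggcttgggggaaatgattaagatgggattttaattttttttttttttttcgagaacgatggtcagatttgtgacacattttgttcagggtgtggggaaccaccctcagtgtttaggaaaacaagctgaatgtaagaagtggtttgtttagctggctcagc
Rgs2: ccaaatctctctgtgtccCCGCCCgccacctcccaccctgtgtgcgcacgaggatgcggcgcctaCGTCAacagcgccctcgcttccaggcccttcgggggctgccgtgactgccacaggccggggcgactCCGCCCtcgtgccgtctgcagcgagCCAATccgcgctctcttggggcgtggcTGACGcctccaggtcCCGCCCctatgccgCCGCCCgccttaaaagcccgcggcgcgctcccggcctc
The motifs were searched on both strands and are given here with the share of 32817 RefSeq windows of the same length that hold each. Factors of the GATA family were searched as AGATAA, which 9.99% of the windows hold, ETS factors as AGGAAG (29.5%) and RUNX factors as TGTGGT (14.04%). AP-1 was searched as TGANTCA (6.75%) and the core of a cAMP response element (CRE) as TGACG (17.7%). The CCAAT box was searched by those letters (33.8%) and the GC box as GGGCGG (32.7%). The Rgs7bp window held 1 ETS match, 1 CRE core and 2 CCAAT boxes. The Rgs2 window held 4 GC boxes, 2 CRE cores and 1 CCAAT box. The Gng2 window held 1 AP-1 match, counted once, since the pattern TGANTCA matches the same bases on both strands. The bases of this window lie between exons of transcripts that start farther upstream. A match describes the letters of a window and not a bound site.

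The 10 genes spanned a wide range of levels. To compare genes, CPM was divided by the length in kilobases of the exons of their protein-coding transcripts in GENCODE M21. Over the 18 libraries, Rgs18 was the highest at 87.7 ± 23.6 CPM per kilobase (SD, n = 18), followed by Gng11 at 73.2 ± 31.4 CPM per kilobase and Rgs19 at 25.7 ± 5.68 CPM per kilobase. Rgs1 had 21.1, Gng2 13.3, Rgs14 11.1 and Rgs2 6.10 CPM per kilobase. Rgs3 had 2.63, Rgs7bp 1.33 and Rgs10 0.682 CPM per kilobase. The library ranges of neighbours in this order overlapped in each case but 1, between Gng11, whose lowest library had 41.0 CPM per kilobase, and Rgs19, whose highest had 35.5 CPM per kilobase. The order of means was not the same in each group. In aged LT-HSCs Gng11 (113 CPM per kilobase) was level with Rgs18 (112 CPM per kilobase), and in young LT-HSCs Gng2 (2.49 CPM per kilobase) lay below Rgs14, Rgs2 and Rgs3 (5.77, 4.63 and 2.79 CPM per kilobase).

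**Figure D1:**
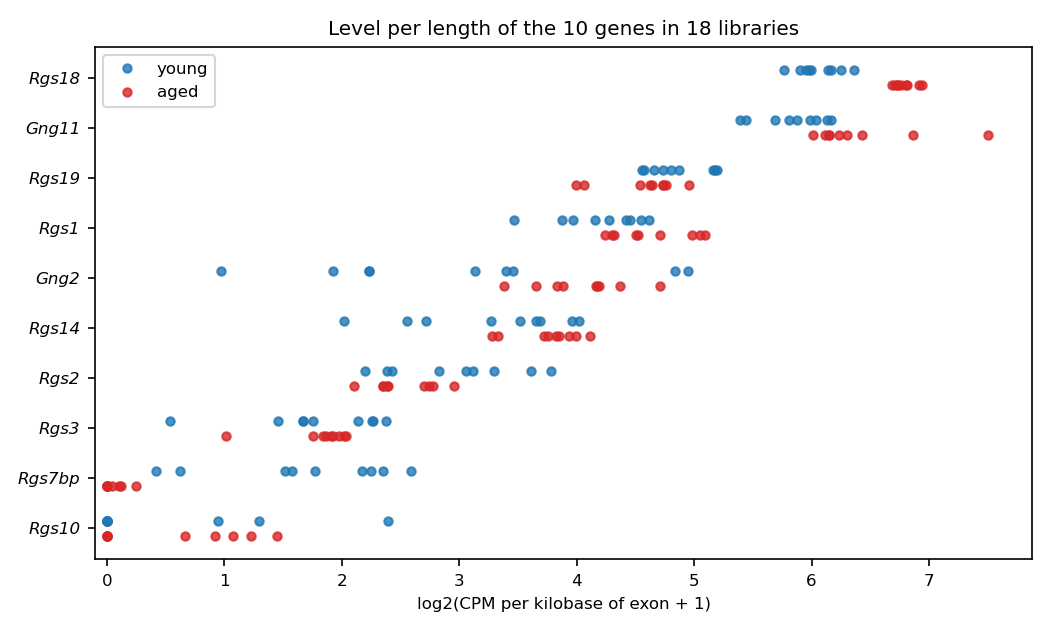
Level of each gene in the 18 libraries, as log2(CPM per kilobase of exon + 1), with 9 young libraries in blue above 9 aged libraries in red and genes ordered by mean level. Rgs18 and Gng11 lie apart from the other 8 genes, the young and aged points of Rgs18 do not overlap, and the aged points of Rgs7bp lie at or near 0.

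Some other components of the pathway were measured at higher levels than Rgs18 by mean. The highest per length in their role lists were the adhesion receptor Adgrg1 at 506 CPM per kilobase, the inhibitory alpha subunit Gnai2 at 167 CPM per kilobase and the effector phospholipase Plcb2 at 91.6 CPM per kilobase. The receptor kinase Grk2 had 87.5 CPM per kilobase and the beta subunit Gnb1 72.8 CPM per kilobase. Gng10, the highest of the other gamma subunits, had 26.5 CPM per kilobase, below Gng11 and above Gng2. Gpsm3, a guanine nucleotide dissociation inhibitor listed with the RGS partners, had 29.7 CPM per kilobase.

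Rgs2, Rgs1 and Rgs18 lie close together on chromosome 1 of mm10, all on the minus strand. With Rgs13 and Rgs21 they are the 5 protein-coding genes of a stretch of 776098 bases. Rgs2 spans 143999338 to 144004161, Rgs1 144242296 to 144249242 and Rgs18 144752683 to 144775435. Rgs13 and Rgs21 lie between them and had 0 counts in all 18 libraries. The 3 expressed neighbours are described in turn with the other RGS genes.

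**Figure D2:**
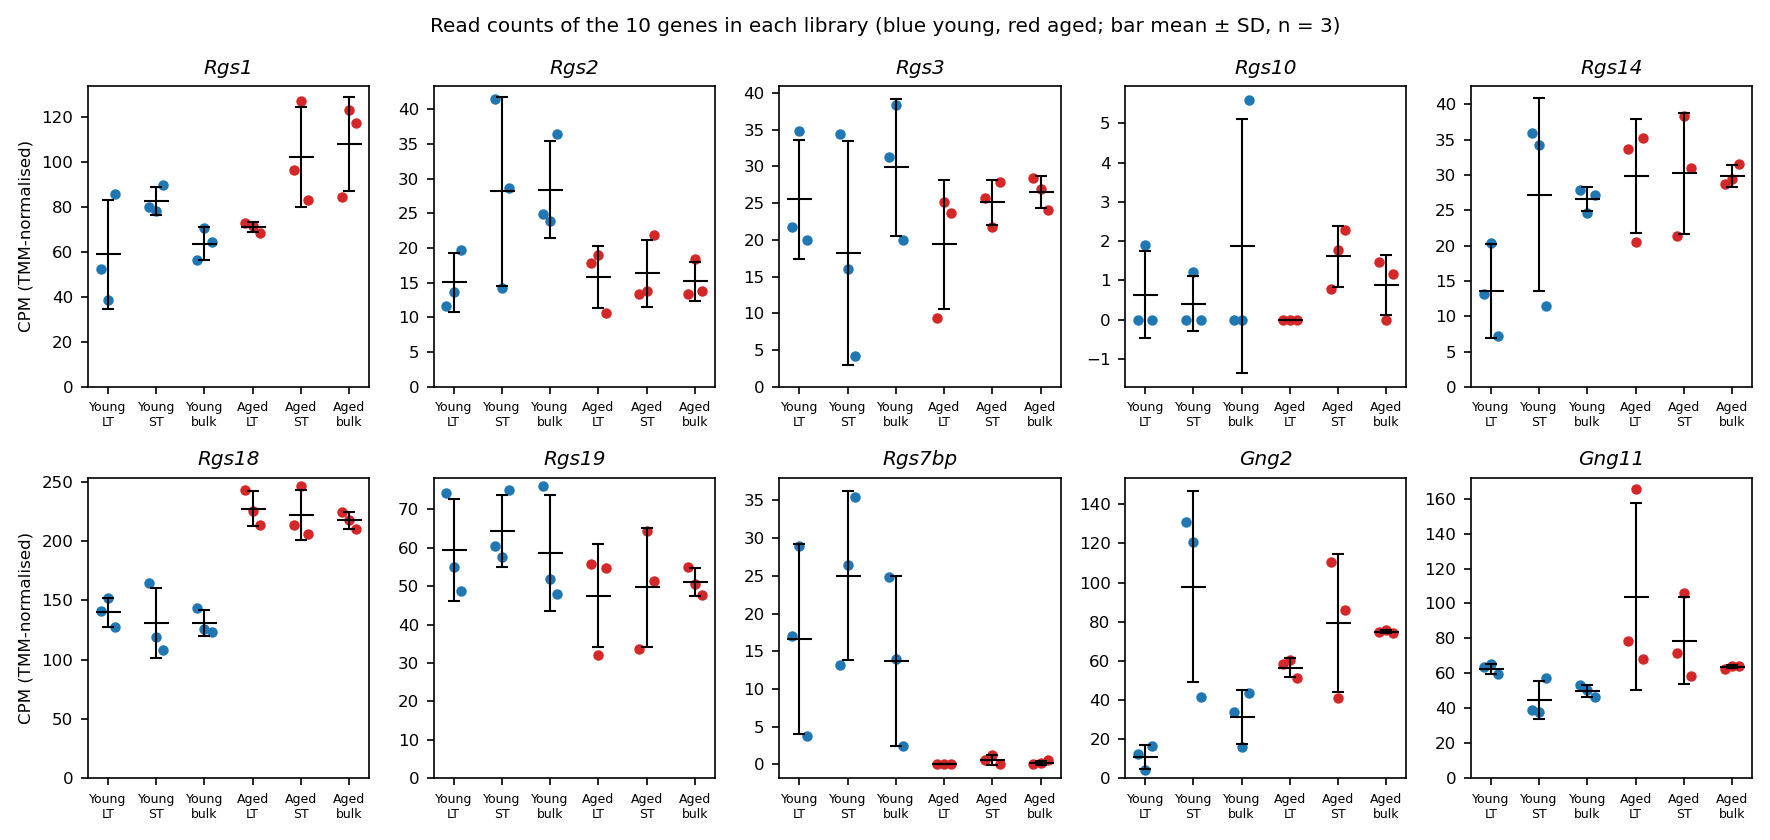
Level of the 10 genes in each library (y axis, CPM, a scale of its own for each gene), with 3 libraries for each fraction and age as points, young in blue and aged in red, and the mean ± SD as a bar, which can reach below 0 where the SD exceeds the mean. Rgs18 is higher in each aged library than in each young one, Rgs7bp is at or near 0 in the aged libraries, and Gng2 is lowest in young LT-HSCs.

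Of the 9 genes tested, 3 passed an adjusted p of 0.05 between aged and young LT-HSCs (Rgs18 and Gng2 higher, Rgs7bp lower), against 0.445% of all 12808 genes. In ST-HSCs 1 passed (Rgs18, higher), against 0.851% of all genes, and in bulk-HSCs 1 passed (Rgs18, higher), against 1.98% of all genes. These p-values were edgeR quasi-likelihood values, adjusted by Benjamini-Hochberg over all genes tested. Since the genes were chosen with such results known, nothing is read from these shares. Young and aged libraries were without overlap for 5 of the 9 in LT-HSCs (16.1% of all genes), for 3 in ST-HSCs (17.8%) and for 7 in bulk-HSCs (22.7%). The 9 genes had median log2 fold changes of 0.27 among LT-HSCs, 0.15 among ST-HSCs and 0.17 among bulk-HSCs, beside 0.04, 0.02 and 0.03 over all genes tested. The numbers of the 9 that were higher in aged cells were 6, 5 and 5.

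The count of calls in LT-HSCs moved with single libraries. It was 0 without young LT-HSC replicate 1 and without any 1 of the 3 aged LT-HSC libraries, and 2 without young LT-HSC replicate 2 or 3. Over these 6 fits the log2 fold change of Gng2 lay between 1.97 and 2.78 and that of Rgs18 between 0.64 and 0.75. In ST-HSCs it was 0 without young ST-HSC replicate 3 or aged ST-HSC replicate 2. In bulk-HSCs it was 1 or 2 without any 1 library, with Rgs7bp the second gene without young bulk-HSC replicate 3. No count over all genes is given for these fits.

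**Figure D3:**
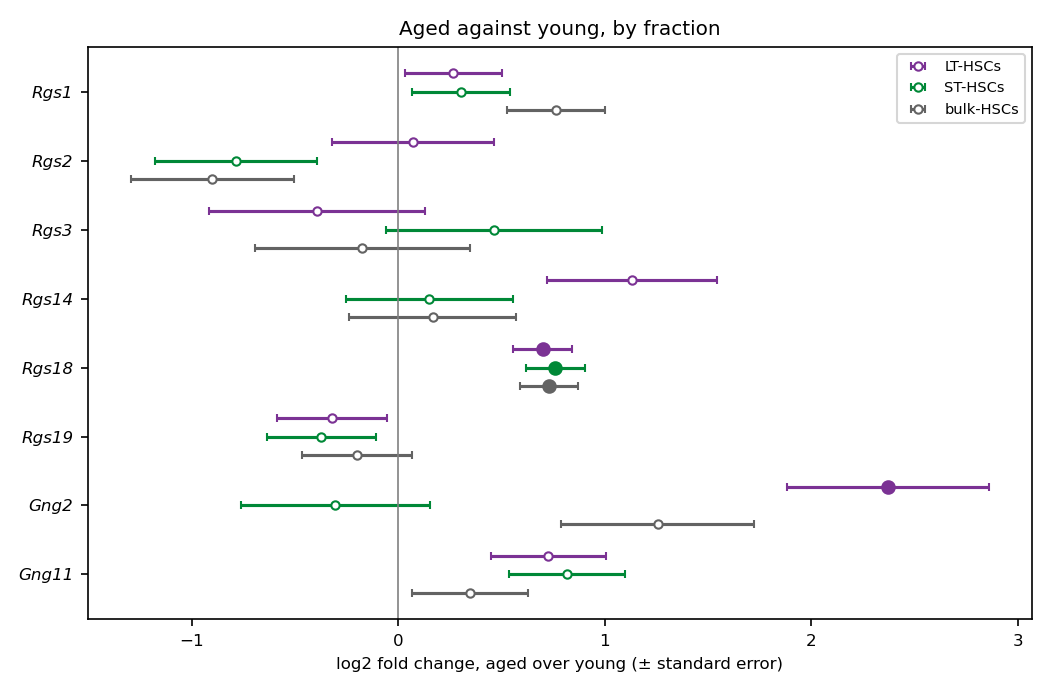
Log2 fold change of aged over young cells with its standard error (x axis) for 8 genes in the 3 fractions, with filled points for an adjusted p under 0.05. Rgs7bp, which is at 0 in all aged LT-HSC libraries, and Rgs10, which was not tested, are left out. Rgs18 lies between 0.70 and 0.76 in the 3 fractions, and Gng2 at 2.37 in LT-HSCs and -0.30 in ST-HSCs.

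Rgs18, an RGS protein of blood cells that is abundant in megakaryocytes and platelets, was higher in aged cells of all 3 fractions. Among LT-HSCs the young libraries had 141, 152 and 128 CPM and the aged ones 243, 226 and 214 CPM. The young ST-HSC libraries had 165, 119 and 109 CPM and the aged ones 213, 246 and 206 CPM. In bulk-HSCs the young libraries had 143, 126 and 123 CPM and the aged ones 224, 218 and 211 CPM. The lowest of the 9 aged libraries (206 CPM) thus lay above the highest of the 9 young ones (165 CPM). In LT-HSCs, ST-HSCs and bulk-HSCs the log2 fold changes with age were 0.70, 0.76 and 0.73, each with a standard error of 0.14. Between fractions of the same age the libraries overlapped, and the log2 differences between LT-HSCs and the other fractions lay between 0.04 and 0.10 with a standard error of 0.14. The age effect in LT-HSCs less that in ST-HSCs was -0.06 on the log2 scale (standard error 0.20). With single libraries left out, the fold change in LT-HSCs stayed between 0.64 and 0.75 and that in ST-HSCs between 0.65 and 0.96.

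Gng11, a gamma subunit that carries a farnesyl anchor, was also higher in aged cells of each fraction. In LT-HSCs the young libraries had 63.5, 65.1 and 59.6 CPM and the aged ones 78.3, 165 and 68.1 CPM. The young ST-HSC libraries had 39.1, 37.7 and 57.3 CPM and the aged ones 71.5, 106 and 58.2 CPM. In bulk-HSCs the young libraries had 53.2, 50.6 and 46.4 CPM and the aged ones 62.8, 64.1 and 64.4 CPM. Aged and young libraries did not overlap within any fraction, although the nearest values in ST-HSCs were 57.3 and 58.2 CPM. The log2 fold change was 0.73 in LT-HSCs and 0.82 in ST-HSCs (standard error 0.28 in both) and 0.35 in bulk-HSCs (standard error 0.28), and none passed an adjusted p of 0.05. In LT-HSCs it rested on aged replicate 2, without which it was 0.22, and in ST-HSCs it was 0.54 without aged replicate 2. Rgs18 and Gng11 were the 2 genes of the 10 whose aged libraries lay above the young ones in all 3 fractions, as did 1.94% of all genes tested.

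In LT-HSCs and ST-HSCs the summed platelet and megakaryocyte markers were higher with age, as were Rgs18 and Gng11. The sum of 12 such markers was 111 to 129 CPM in young and 143 to 219 CPM in aged LT-HSCs, and 109 to 147 CPM in young and 194 to 220 CPM in aged ST-HSCs. In bulk-HSCs it was 149 to 206 CPM in young and 196 to 205 CPM in aged libraries, which overlap. Itga2b, the integrin that HSCs also express, made up most of the sum in aged LT-HSCs at 118 ± 32.4 CPM (SD, n = 3), beside 69.4 ± 26.9 CPM in young ones. Of the defining platelet genes, Gp6 had no count in any library, and Pf4 had 5.99 ± 5.99 CPM (SD, n = 3) in young and 7.81 ± 1.60 CPM in aged LT-HSCs. Gp1bb was higher in aged LT-HSCs without overlap (0 to 1.57 against 2.29 to 7.45 CPM), as was Gp5 (1.35 to 7.46 against 8.67 to 10.8 CPM), and Gp1ba had 22.2 ± 3.66 and 21.3 ± 4.16 CPM. In LT-HSCs and ST-HSCs 8 of the 10 markers tested were higher in aged cells, and in bulk-HSCs 6 of 10. In each fraction 0 passed an adjusted p of 0.05 with edgeR and 1 was at an unadjusted p under 0.05. Of all 12808 genes, 1129, 1238 and 1698 were at that unadjusted p in LT-HSCs, ST-HSCs and bulk-HSCs. The part of platelets and megakaryocytes in the values of Rgs18 and Gng11 was not tested.

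Rgs7bp encodes the palmitoylated protein that anchors complexes of the R7 group of RGS proteins, such as Rgs7, at the membrane. The gene lies on chromosome 13 of mm10 from 104945904 to 105054930. It was detected in all 9 young libraries, while 5 of the 9 aged libraries had no count. In young LT-HSCs the 3 libraries had 313, 592 and 65 counts (17.05, 29.0 and 3.81 CPM), and the 3 aged LT-HSC libraries had 0 counts. The young ST-HSC libraries had 278, 585 and 624 counts and the aged ones 14, 29 and 0 counts. For bulk-HSCs the young libraries had 445, 308 and 51 counts and the aged ones 0, 4 and 11 counts. The lowest young library (2.38 CPM) lay above the highest aged one (1.32 CPM), and 0.601% of all genes tested were lower in aged cells without overlap in all 3 fractions.

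Against a floor of 3 counts in each library, Rgs7bp was at least 103-fold lower in aged than in young LT-HSCs. That bound covers counting error only, and 2 to 6 well-covered genes had no count in single aged LT-HSC libraries. The ratio of means was 38.5-fold in ST-HSCs (25.02 ± 11.2 against 0.650 ± 0.660 CPM, SD, n = 3) and 55.8-fold in bulk-HSCs (13.8 ± 11.3 against 0.247 ± 0.271 CPM), both lower in aged cells. These ratios moved with single libraries. The bound in LT-HSCs was 64.4-fold without young replicate 2, and the ratio in ST-HSCs was 25.6-fold without aged replicate 3 and 79.1-fold without aged replicate 2. The ratio in bulk-HSCs was 33.2-fold without young replicate 1, 37.2-fold without aged replicate 1 and 136-fold without aged replicate 3. The young libraries varied widely, with 3.81 to 29.0 CPM within LT-HSCs and 2.38 to 24.9 CPM within bulk-HSCs. The gene passed an adjusted p of 0.05 in LT-HSCs and not in ST-HSCs or bulk-HSCs with edgeR, and in all 3 with DESeq2. Young LT-HSCs overlapped both young ST-HSCs and young bulk-HSCs. Rgs7, its RGS partner, did not pass the expression filter, with 2.23 CPM in 1 young LT-HSC library and 0 counts in the other 17 libraries. Rgs9, of the same R7 group, passed the filter at a mean of 1.68 to 3.91 CPM in the 6 groups, with young and aged libraries overlapping in each fraction. Of the same group, Rgs6 had a level of 0 in all groups. Rgs11 was low but higher in aged cells by mean, opposite to Rgs7bp. It had 0.171 and 0.752 CPM per kilobase in young and aged LT-HSCs, 0.164 and 0.309 in ST-HSCs and 0.309 and 0.917 in bulk-HSCs.

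Gng2, a widely expressed gamma subunit, was lowest in young LT-HSCs. There its 3 libraries had 12.3, 4.21 and 16.3 CPM, and the young ST-HSC libraries had 131, 121 and 41.8 CPM, without overlap. Those of young bulk-HSCs had 34.1, 16.2 and 43.7 CPM, and the lowest of these lay just below the highest young LT-HSC library. The aged LT-HSC libraries had 58.2, 60.4 and 51.0 CPM, all above the young ones. The aged ST-HSC libraries had 110, 41.2 and 86.1 CPM and overlapped the young ones, and the aged bulk-HSC libraries had 74.8, 75.9 and 74.2 CPM, all above the young ones. On the log2 scale the change with age was 2.37 in LT-HSCs (standard error 0.49), 1.26 in bulk-HSCs (standard error 0.47) and -0.30 in ST-HSCs (standard error 0.46).

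In young cells, Gng2 in LT-HSCs less that in ST-HSCs was -3.16 on the log2 scale (standard error 0.50), or 8.94-fold lower in LT-HSCs by the ratio of means. In aged cells it was -0.49 (standard error 0.46), with overlapping libraries. Without any 1 library the young difference lay between -3.57 and -2.76, and the change with age in ST-HSCs between -0.66 and 0.01. The gene may have been chosen by these values, which are given as a description. The age effect in LT-HSCs less that in ST-HSCs was 2.68 (standard error 0.67). It did not pass the adjustment, and with edgeR none of the 12808 genes did in that comparison (0% called, 502 genes at an unadjusted p under 0.05). The Flt3 transcript, a marker of progenitors outside the HSC gate, moved with Gng2 in young cells, with 15.8 ± 6.56 CPM (SD, n = 3) in LT-HSCs and 64.0 ± 21.9 CPM in ST-HSCs. The summed level of the 7 progenitor markers was 183 to 244 CPM in young LT-HSCs, 342 to 509 CPM in young ST-HSCs, 139 to 159 CPM in aged LT-HSCs and 252 to 263 CPM in aged ST-HSCs. Its part in the values of Gng2 was not tested. In LT-HSCs with age this sum was lower while Gng2 was higher, as in bulk-HSCs, where the sum was 222 to 306 CPM in young and 168 to 213 CPM in aged libraries.

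Rgs14, which couples an RGS domain to Ras-binding and GoLoco domains, was also low in young LT-HSCs. Its 3 libraries in young LT-HSCs had 13.1, 20.4 and 7.21 CPM and the aged ones 33.8, 20.5 and 35.2 CPM. These did not overlap, but the nearest values were 20.4 and 20.5 CPM. In young bulk-HSCs they had 27.9, 24.6 and 27.2 CPM, all above young LT-HSCs, and the young ST-HSC libraries had 35.9, 34.3 and 11.5 CPM, which overlapped them. In the aged fractions Rgs14 was close to 30 CPM by mean, with 29.8 ± 8.08 CPM (SD, n = 3) in LT-HSCs, 30.3 ± 8.54 CPM in ST-HSCs and 29.9 ± 1.52 CPM in bulk-HSCs. On the log2 scale aged less young LT-HSCs came to 1.13 (standard error 0.41), with 0.15 and 0.17 for ST-HSCs and bulk-HSCs (standard error 0.41 in both). Without young replicate 3 the value in LT-HSCs was 0.83, and without young replicate 2 it was 1.54. The value in ST-HSCs was -0.21 without young replicate 3 and -0.06 without aged replicate 2.

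Rgs1, which dampens chemokine receptor signalling in lymphocytes, was lower in LT-HSCs than in the other aged fractions. The aged LT-HSC libraries had 72.8, 71.7 and 68.7 CPM, the aged ST-HSC libraries 96.5, 127 and 83.4 CPM and the aged bulk-HSC libraries 84.4, 123 and 117 CPM. The aged LT-HSC values lay below all 6 others. The young bulk-HSC libraries had 56.3, 70.6 and 64.6 CPM, all below the aged ones, at a log2 fold change of 0.76 (standard error 0.24). In LT-HSCs and ST-HSCs young and aged libraries overlapped, at log2 fold changes of 0.27 and 0.30 (standard error 0.24 in both). The value in LT-HSCs was 0.64 without young replicate 3, the highest young library at 86.0 CPM, and 0.02 without young replicate 2. The summed level of 16 immediate early genes, transcripts that rise when cells are handled or stimulated, was 663 to 859 CPM in young and 723 to 1930 CPM in aged bulk-HSCs, and its part in the values of Rgs1 was not tested.

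Rgs2, an RGS protein that acts mainly on Gq alpha subunits, was higher in young ST-HSCs and bulk-HSCs than in the other groups by mean. The young bulk-HSC libraries had 24.9, 23.9 and 36.5 CPM and the aged ones 13.4, 18.5 and 13.8 CPM, without overlap. Those of young LT-HSCs had 11.7, 13.7 and 19.8 CPM, below young bulk-HSCs and level with the aged LT-HSC libraries at 17.8, 19.0 and 10.7 CPM. The young ST-HSC libraries had 41.6, 14.3 and 28.7 CPM and overlapped the aged ones at 13.4, 13.8 and 21.9 CPM. Aged less young bulk-HSCs came to -0.90 on the log2 scale, ST-HSCs to -0.78 and LT-HSCs to 0.07 (standard error 0.39 in each). In ST-HSCs it was -0.39 without young replicate 1, and in LT-HSCs it lay between -0.08 and 0.32 without any 1 library. None of these passed an adjusted p of 0.05.

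The other RGS genes did not separate the ages. Rgs19, which acts on Gi alpha subunits, had 48.1 to 76.0 CPM in the young libraries and 32.0 to 64.4 CPM in the aged ones. Its log2 fold changes with age were -0.32, -0.37 and -0.20 in LT-HSCs, ST-HSCs and bulk-HSCs (standard error 0.27 in each). Rgs3, which acts on Gi and Gq alpha subunits, had 4.14 to 38.4 CPM in the young libraries and 9.33 to 28.4 CPM in the aged ones, with log2 fold changes of -0.40, 0.46 and -0.17 (standard error 0.52 in each). The value of Rgs3 in ST-HSCs was 1.31 without young replicate 1 and near 0 without young replicate 3, its lowest library. Without 1 young bulk-HSC library, the values in bulk-HSCs reached 0.05 for Rgs3 (replicate 2 left out) and 0.04 for Rgs19 (replicate 1 left out). For both genes the young and aged libraries overlapped in each fraction. An antisense gene is annotated within Rgs3 and a long noncoding RNA overlaps the end of Gng2 on the other strand. Within Rgs10 a further noncoding transcript is annotated on the same strand. None of these is in the table, and whether the counting used strand is not given in the sources used here.

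Rgs10, a small RGS protein of immune and nerve cells, was detected in 8 of the 18 libraries. In young cells it had 39 counts in LT-HSC replicate 2, 27 counts in ST-HSC replicate 2 and 120 counts in bulk-HSC replicate 3, and 0 counts in the other 6 libraries. The aged LT-HSC libraries had 0 counts, the aged ST-HSC libraries had 17, 39 and 46 counts and the aged bulk-HSC libraries 33, 0 and 24 counts. A count of 0 allows up to 0.164, 0.165 and 0.157 CPM in the aged LT-HSC libraries. No fold change was fitted for Rgs10.

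Between young LT-HSCs and ST-HSCs, 1 of the 9 genes (Gng2) was past an adjusted p of 0.05, against 0.429% of all genes, a count from which nothing is read since such values chose the genes. Libraries of young LT-HSCs and ST-HSCs did not overlap for 2 of the 9 genes (12.1% of all genes), and those of young LT-HSCs and bulk-HSCs for 3 (12.2%). In aged cells, 1 gene did not overlap against ST-HSCs (15% of all genes) and 3 against bulk-HSCs (15.1%). Between young LT-HSCs and bulk-HSCs 0 passed with edgeR, against 0.273% of all genes, with 3 at an unadjusted p under 0.05 and 0 with DESeq2. Between aged LT-HSCs and ST-HSCs 0 passed, against 0.00781% of all genes, with 2 at an unadjusted p under 0.05 and 1 with DESeq2 (Rgs7bp). Between aged LT-HSCs and bulk-HSCs 0 passed, against 0% of all genes, with 3 at an unadjusted p under 0.05 and 0 with DESeq2. The difference in the age effect passed for 0 genes between LT-HSCs and ST-HSCs (2 at an unadjusted p under 0.05, 0 with DESeq2) and for 0 between LT-HSCs and bulk-HSCs, where 0.00781% of all genes passed (1 at an unadjusted p under 0.05, 0 with DESeq2). These comparisons share their LT-HSC libraries. Of all 12808 genes, 1477 were at an unadjusted p under 0.05 with edgeR between young LT-HSCs and bulk-HSCs. Against aged LT-HSCs there were 437 for aged ST-HSCs and 421 for aged bulk-HSCs. For the difference in the age effect from LT-HSCs there were 502 for ST-HSCs and 746 for bulk-HSCs. No DESeq2 count over all genes is given beside these.

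By level, Gng11 was higher in LT-HSCs than in the other young fractions. In young cells its lowest LT-HSC library (59.6 CPM) lay above the highest ST-HSC library (57.3 CPM) and the highest bulk-HSC library (53.2 CPM). In aged cells its lowest LT-HSC library (68.1 CPM) lay above the highest bulk-HSC library (64.4 CPM) and within the range of ST-HSCs. By mean, Gng11 in aged bulk-HSCs (63.7 CPM), which contain cells of both other fractions, lay below aged LT-HSCs (104 CPM) and ST-HSCs (78.7 CPM). On the log2 scale LT-HSCs less ST-HSCs came to 0.49 in young and 0.40 in aged cells, and LT-HSCs less bulk-HSCs to 0.33 and 0.71 (standard error 0.28 in each). Both aged values rested on aged LT-HSC replicate 2 (165 CPM), without which they were -0.10 against ST-HSCs and 0.20 against bulk-HSCs. Rgs2 and Rgs14 had lower levels in young LT-HSCs than in the other young fractions by mean. For Rgs2 the log2 values were -0.90 against ST-HSCs and -0.92 against bulk-HSCs (standard error 0.39 in both), and in aged cells -0.05 and 0.06. For Rgs14 they were -1.003 and -0.97 in young cells (standard error 0.41 in both), and in aged cells -0.02 and -0.00. For both genes the young LT-HSC libraries overlapped those of ST-HSCs and lay below those of bulk-HSCs. Rgs1 was at -0.53 and -0.61 in aged LT-HSCs against ST-HSCs and bulk-HSCs (standard error 0.24 in both), and Rgs3 and Rgs19 overlapped in all 4 of these comparisons.

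**Figure D4:**
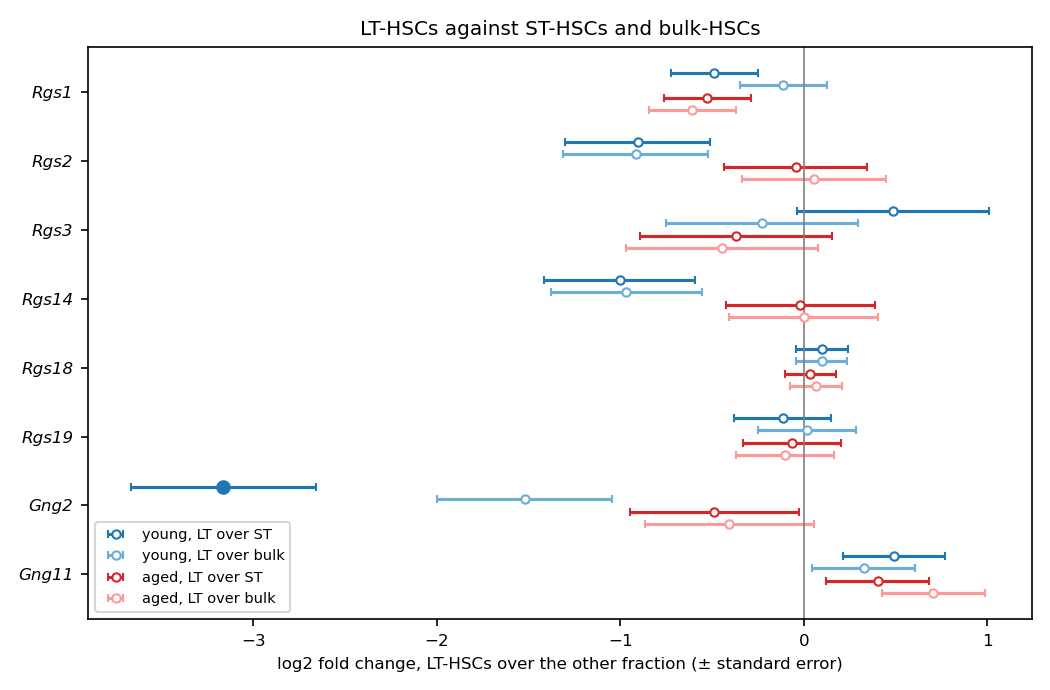
Log2 ratio of LT-HSCs to ST-HSCs or bulk-HSCs with its standard error (x axis) for 8 genes, in young (blue) and aged (red) cells, with a filled point for an adjusted p under 0.05. Gng2 in young cells lies at -3.16 against ST-HSCs and -1.52 against bulk-HSCs, while in aged cells it lies at -0.49 and -0.41, and Gng11 lies above 0 in all 4 comparisons, of which that of aged LT-HSCs with ST-HSCs is -0.10 without aged LT-HSC replicate 2.

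The other genes of the pathway were taken as 119 genes in 7 role lists, of which 83 passed the expression filter. In LT-HSCs 2 of the 83 passed an adjusted p of 0.05 as higher with age and 0 as lower (0.445% of all genes passed). In ST-HSCs 2 passed as higher and 0 as lower (0.851%), and in bulk-HSCs 5 passed as higher and 1 as lower (1.98%). Most of these were receptors, which made up 29 of the 83. The lists were drawn up with earlier results of these data known, so that nothing is read from these shares. The adjusted p-values given below for single genes carry the same limit. None of the 7 other RGS genes and partners, the 6 other gamma subunits, the 4 beta subunits or the 13 alpha subunits tested passed an adjusted p of 0.05 with age in any fraction with edgeR. At an unadjusted p under 0.05, 1, 1 and 0 of the RGS list passed in the same order of fractions, 0, 1 and 0 of the gamma subunits, 0, 0 and 1 of the beta subunits and 0, 1 and 1 of the alpha subunits. Of all 12808 genes, 1129, 1238 and 1698 were at that unadjusted p with edgeR, and nothing is read from these small counts. With DESeq2, Rgs12 in ST-HSCs and Gnb5 in bulk-HSCs passed. The median log2 fold change of the 83 genes was 0.12, 0.06 and 0.05 in the 3 fractions. By sign alone, 48, 46 and 48 of the 83 were higher in aged cells, beside 53.6%, 52.4% and 53.0% of all genes tested.

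**Figure D5:**
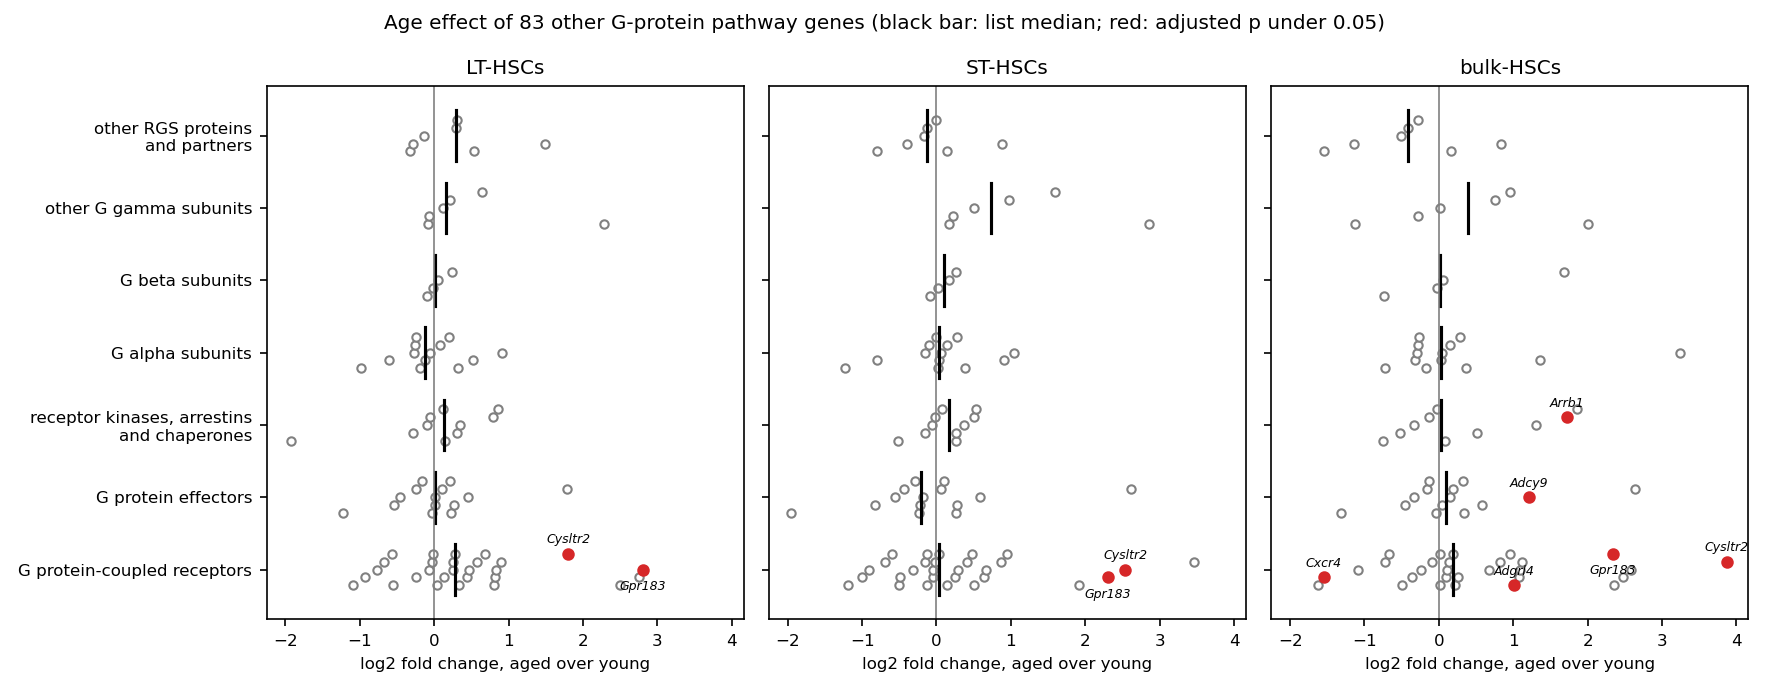
Log2 fold change of aged over young cells (x axis) for the 83 pathway genes tested outside the 10, in a panel for each fraction, 1 point a gene in rows by role, with a black bar at the median of each list and red points for an adjusted p under 0.05. Cnr2, at 0 in all young LT-HSC libraries, is left out of the LT-HSC panel. The red points are receptors in LT-HSCs and ST-HSCs (Gpr183 and Cysltr2), with Adgrl4, Cxcr4, Arrb1 and Adcy9 beside them in bulk-HSCs.

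Gpr183, a receptor for oxysterols that guides immune cells, rose with age in all 3 fractions. It had 6.76 to 14.8 CPM in young and 55.9 to 85.1 CPM in aged LT-HSCs, 2.80 on the log2 scale (0.45 as standard error, edgeR adjusted p = 0.00942). In ST-HSCs it had 4.94 to 8.64 CPM in young and 22.8 to 48.9 CPM in aged libraries, 2.31 on the log2 scale (0.45 as standard error, edgeR adjusted p = 0.0173). In bulk-HSCs it had 5.79 to 17.6 CPM in young and 35.1 to 67.9 CPM in aged libraries, 2.34 on the log2 scale (0.44 as standard error, edgeR adjusted p = 0.00940). Each aged library thus lay above each young one. The call was lost in LT-HSCs without young replicate 1 (adjusted p = 0.0532) and in ST-HSCs without young replicate 2 (adjusted p = 0.0652) or aged replicate 2 (adjusted p = 0.0828).

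Cysltr2, a receptor for cysteinyl leukotrienes, also rose in all 3. It had 22.96 to 40.4 CPM in young and 99.0 to 112 CPM in aged LT-HSCs, 1.80 on the log2 scale (0.33 as standard error, edgeR adjusted p = 0.0197). In ST-HSCs it went from 6.47 to 19.3 CPM in young libraries to 70.3 to 90.9 CPM in aged ones, 2.54 on the log2 scale (0.34 as standard error, edgeR adjusted p = 0.000779). In bulk-HSCs it went from 3.46 to 7.62 CPM in young libraries to 71.1 to 79.8 CPM in aged ones, 3.87 on the log2 scale (0.37 as standard error, edgeR adjusted p = 3.15e-05). By mean the 3 aged fractions had 75.2 to 105 CPM and the 3 young ones 5.13 to 30.0 CPM. Young bulk-HSCs (5.13 CPM), which contain cells of both other fractions, lay below young LT-HSCs (30.0 CPM) and young ST-HSCs (13.4 CPM) by mean. The change with age in bulk-HSCs and the comparison of young LT-HSCs with young bulk-HSCs both use this low level. Young LT-HSCs were higher than young bulk-HSCs by 2.55 on the log2 scale (standard error 0.35, adjusted p = 0.00331 in edgeR), the 1 pathway gene of the 83 that passed in that comparison (0.273% of all genes). The call with age in LT-HSCs was lost without any 1 of young replicates 1 and 3 and the 3 aged libraries (adjusted p of 0.0939, 0.0905, 0.0747, 0.0664 and 0.0590).

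The 4 further genes passed in bulk-HSCs. Adgrl4, an adhesion receptor of HSCs and endothelium, rose from 601 ± 81.3 to 1209 ± 153 CPM (SD, n = 3), 1.01 on the log2 scale (0.14 as standard error, edgeR adjusted p = 0.000853). By mean per kilobase, Adgrl4 had 146 CPM in young bulk-HSCs, below young LT-HSCs (164 CPM) and ST-HSCs (185 CPM). In aged bulk-HSCs it had 295 CPM per kilobase, above aged LT-HSCs (226) and ST-HSCs (247), although bulk-HSCs contain cells of both. Arrb1, an arrestin that uncouples receptors from G proteins, rose from 90.5 ± 9.50 to 300 ± 17.5 CPM, by 1.73 (standard error 0.31, edgeR adjusted p = 0.00556). In the other young fractions Arrb1 had 199 ± 122 CPM (LT-HSCs) and 288 ± 83.8 CPM (ST-HSCs), so that young bulk-HSCs, which contain both, lay below them. Per kilobase, Arrb1 went by mean from 26.7 CPM in young to 46.2 CPM in aged LT-HSCs. In ST-HSCs it had 38.7 CPM per kilobase in young and 37.1 in aged cells. Cxcr4, the receptor of the niche chemokine, fell from 220 ± 32.0 to 75.3 ± 11.96 CPM (SD, n = 3), -1.54 on the log2 scale (0.25 as standard error, edgeR adjusted p = 0.00263). Cxcr4 was also lower in aged LT-HSCs (184 ± 73.6 against 96.1 ± 12.8 CPM) and ST-HSCs (209 ± 57.1 against 105 ± 15.6 CPM), without passing there. Adcy9, an adenylate cyclase, rose from 67.4 ± 26.4 to 157 ± 4.56 CPM, by 1.22 (standard error 0.27, edgeR adjusted p = 0.0259). The Adcy9 call was lost without any 1 of young replicates 1 and 3 and the 3 aged libraries, with adjusted p between 0.0642 and 0.0848.

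Between fractions, 0 of the 83 passed between young LT-HSCs and ST-HSCs with edgeR (15 at an unadjusted p under 0.05, 7 with DESeq2). Between aged LT-HSCs and ST-HSCs 0 passed (6 at an unadjusted p under 0.05, 0 with DESeq2), as between aged LT-HSCs and bulk-HSCs (6 at an unadjusted p under 0.05, 0 with DESeq2). Of all 12808 genes, 1333, 437 and 421 were at an unadjusted p under 0.05 with edgeR in these 3 comparisons. No DESeq2 count over all genes is given beside these. The abundant alpha and beta partners did not pass with age. Gnai2 had 369 ± 36.7 CPM (SD, n = 3) in young and 422 ± 37.7 CPM in aged LT-HSCs, and Gnb1 had 236 ± 5.96 and 278 ± 30.4 CPM. With age in LT-HSCs their log2 fold changes were 0.19 (standard error 0.12, edgeR adjusted p = 0.725) and 0.24 (standard error 0.15, adjusted p = 0.762 in edgeR).

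For each of the 9 genes the 3 genes with the most similar pattern were taken by Pearson's r of log2(CPM + 1) over the 18 libraries, which share groups and depth. Rgs18 was most like Osmr (r = 0.94), Prom2 (r = 0.93) and Cyp2u1 (r = 0.93). Rgs7bp was most like Itga4 (r = 0.90), Arap3 (r = 0.89) and Zfp608 (r = 0.89), and Gng11 like Pak7 (r = 0.89), Prune2 (r = 0.83) and Mtss1l (r = 0.83). Gng2 was most like Clic1 (r = 0.81), Ate1 (r = 0.80) and Spn (r = 0.79), and Spn was also first for Rgs1 (r = 0.82), ahead of Ctsd and Rps19. Rgs14 was most like Pigx (r = 0.89), Slc38a6 (r = 0.89) and Wrn (r = 0.86). For Rgs2 the 3 were Arhgef18, Hnrnph1 and Pck2 (r of 0.84 to 0.81), for Rgs3 Vma21, Fbxo7 and Bnip1 (r = 0.83 for each) and for Rgs19 Pip4k2a, Bdp1 and Rnf5 (r of 0.79 to 0.73). Among the 9 genes themselves, Rgs18 and Rgs7bp ran opposite to each other (r = -0.84), Rgs18 and Gng11 together (r = 0.63), and Rgs1 and Gng2 together (r = 0.63), values given as a description over 18 libraries.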

How the data were processed

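RNA of the 18 libraries was sequenced after depletion of ribosomal RNA. HISAT2 2.1.0 (alignment to mm10), SAMtools 1.7 and StringTie 1.3.4d (quantification) were used by the authors. The gene annotation they used is not given in the sources used here. The deposited values are counts per gene symbol, whole numbers without normalization. All columns belonged to a sample of the series, and groups and replicates came from the sample titles.

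The counts were analysed with edgeR 4.0.16 (with limma 3.58.1) in R 4.3.3, and plotted with matplotlib 3.10.9 from tables handled by pandas 2.3.3 and numpy 2.4.6 under Python 3.11.15. Of 24421 genes, the 12808 with a mean TMM-normalised CPM of at least 1 were fitted in 1 quasi-likelihood model of the 6 group means, with 12 residual degrees of freedom. Contrasts were adjusted with the Benjamini-Hochberg method over all genes, at a threshold of 0.05. Standard errors were the log2 fold change divided by the square root of F. Fold changes against a group at 0 counts were bounded with 3 counts per library. Lengths and coordinates came from GENCODE M21. Depth was 16495048 to 22973844 counts per library, with a median of 20397548.

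The 10 genes, the pathway and marker lists and the comparisons were chosen with earlier results of these data known. The genes named are the 10, the pathway genes past the threshold (at most the 10 with the smallest p for each comparison) and the highest per length in each role list, for each of the 9 genes tested the 3 most similar genes, and markers beside a result. Pik3cg, Rgs6, Rgs7, Rgs9, Rgs11, Rgs12, Rgs13, Rgs21, Gnb5 and Cnr2 fall outside this rule and were named after their values were seen. Listed symbols were matched through older names for 4 genes (Grk2, Grk3, Ric8a and Mpig6b), and Ly6g was not matched.

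The alternatives were RLE factors or library size alone in place of TMM, 3 other filters (1 count in all, filterByExpr, or a minimum of 10 counts in all libraries), a model of only the compared groups, a replicate block, DESeq2 1.42.0, each library left out in turn and, chosen after the data were seen, removal of young LT-HSC and ST-HSC replicates 3 and, for the ratio of means of Rgs7bp, of each library in turn. On simulated data with 200 of 12808 genes changed 4-fold in aged LT-HSCs, edgeR called 115 of the 200 with age in LT-HSCs, all with the correct sign, and 2 unchanged genes. DESeq2, on 12600 of these genes, called 132 of the 200 and 52 unchanged genes with age in LT-HSCs, and 36 genes with age in ST-HSCs, where none was changed and edgeR called 0.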

Additional observations from a re-analysis of the deposited data

How the results depend on the processing

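No fold change of the 10 genes that had passed the threshold changed its sign under any alternative run. Rgs18 passed with age in 15 of 15 alternatives for bulk-HSCs, 12 of 15 for ST-HSCs and 7 of 15 for LT-HSCs. Gng2 passed between young LT-HSCs and ST-HSCs in 14 of 15 and with age in LT-HSCs in 9 of 15. Rgs7bp passed with age in LT-HSCs in 9 of 14. The genes were chosen by values in these same libraries, so these counts show only how the calls depend on the settings. A fit on only the groups compared, which leaves fewer residual degrees of freedom, left 0 of the 9 genes and 0 of the 83 pathway genes called with age in LT-HSCs and in ST-HSCs, 0 of the 9 between young LT-HSCs and ST-HSCs and 0 of the 83 between young LT-HSCs and bulk-HSCs. With DESeq2, 2 of the 9 passed with age in ST-HSCs and 3 in bulk-HSCs, 1 passed between aged LT-HSCs and ST-HSCs, and of the 83 pathway genes the calls with age came to 7 among LT-HSCs, 4 among ST-HSCs and 12 among bulk-HSCs, with 7 for young LT-HSCs against ST-HSCs and 6 against bulk-HSCs. The cause was not tested, and no DESeq2 count over all genes is given beside these. With no filter beyond 1 count 2 of the 9 passed in bulk-HSCs and 1 pathway gene (Pik3cg) between young LT-HSCs and ST-HSCs, as it did with at least 10 counts in every library. Without young LT-HSC and ST-HSC replicates 3 together, 3 of the 9 and 11 of the 83 passed in bulk-HSCs, and with age in LT-HSCs 2 of the 9 did. No count over all genes is given for these alternatives or with single libraries left out. Whether the counts moved with that of all genes is therefore not shown.

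With single libraries left out, the calls among the 9 with age ranged from 0 to 2 (LT-HSCs), 0 to 1 (ST-HSCs) and 1 to 2 (bulk-HSCs), stayed at 1 between young LT-HSCs and ST-HSCs, and were 0 in the other comparisons. Among the 83 they ranged from 0 to 4 with age in LT-HSCs (0 without young LT-HSC replicate 1, 4 without replicate 2), 1 to 2 for ST-HSCs (1 without aged ST-HSC replicate 2), 5 to 7 for bulk-HSCs, 0 to 3 between young LT-HSCs and ST-HSCs (3 without young LT-HSC replicate 2) and 1 to 2 between young LT-HSCs and bulk-HSCs (2 without young LT-HSC replicate 1 or 2 or young bulk-HSC replicate 3).

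Same-numbered libraries correlated by -0.04 to 0.12 in their deviations from the group means, and in 4 of the 7 comparisons each sample correlated best with its own number, a hint from the data and not from the design. The numbers were not taken as pairs. With a replicate block, 3, 1 and 1 of the 9 genes passed with age (LT-HSCs first, then ST-HSCs, then bulk-HSCs), as without it, and no other count of calls moved. The depth limits Rgs10 and, in aged cells, Rgs7bp, each of which had libraries without a count. Fold changes of genes that had not passed turned sign when 1 library was left out for Rgs3 (ST-HSCs and bulk-HSCs), Gng2 and Rgs14 (ST-HSCs), Rgs19 (bulk-HSCs) and Rgs2 (LT-HSCs) with age, and between fractions for Gng11 (aged LT-HSCs against ST-HSCs) and for smaller differences of Rgs1, Rgs2, Rgs14, Rgs18, Rgs19 and Rgs7bp.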

Other observations

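Among markers of T and NK cells, Klrb1c had 15.9 ± 10.5 CPM (SD, n = 3) in young and 101 ± 37.9 CPM in aged LT-HSCs, 1.80 ± 2.19 and 32.0 ± 11.4 CPM in ST-HSCs, and 4.75 ± 3.03 and 54.2 ± 4.55 CPM in bulk-HSCs. No overlap was seen between the ages in any fraction. Cd3e, Cd3g, Cd8a and Ncr1 had no count in any of the 18 libraries. By mean, Lck had 6.53 CPM in young and 7.94 CPM in aged LT-HSCs. It had 7.38 and 8.32 CPM in ST-HSCs and 8.39 and 12.7 CPM in bulk-HSCs. In the same order, Cd4 had 0 and 0.418 CPM in LT-HSCs, 1.93 and 0.761 in ST-HSCs and 2.93 and 0.228 in bulk-HSCs. Cd3d was detected only in aged ST-HSCs, at a mean of 0.215 CPM. The part of such cells in the levels of the RGS and gamma subunit genes was not tested. Of the B cell markers, Ms4a1, Pax5 and Ebf1 had no count, and the sum of the 7 markers lay between 10.6 and 29.2 CPM. It was lower in aged LT-HSCs without overlap (13.2 to 15.4 against 18.5 to 19.8 CPM) and overlapped between the ages in ST-HSCs and bulk-HSCs. Most of this sum was Cd79b alone, with 16.7 to 19.4 CPM in young and 12.9 to 15.4 CPM in aged LT-HSCs. The sums of the neutrophil and monocyte markers (99.0 to 157 CPM), the erythroid markers (27.3 to 91.3 CPM) and the endothelial markers (334 to 456 CPM) overlapped between young and aged LT-HSCs and ST-HSCs, save for the neutrophil and monocyte markers in ST-HSCs, which were lower in aged cells (133 to 138 against 145 to 157 CPM). In bulk-HSCs the erythroid sum was lower in aged cells (34.8 to 53.8 against 62.2 to 91.3 CPM), and those of the neutrophil and monocyte markers and the endothelial markers overlapped. Most of the neutrophil and monocyte sum was Lyz2, with 137 to 149 CPM in young and 115 to 126 CPM in aged ST-HSCs. Most of the erythroid sum in bulk-HSCs was Tfrc, with 56.1 to 68.6 CPM in young and 29.8 to 31.9 CPM in aged libraries.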
